A study of Mus musculus with 10 samples.

Results

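The genes described here encode the subunits of the receptors for glutamate, GABA and glycine, the fast transmitters of the retina, together with the G protein coupled receptors for glutamate and GABA. They were the rows of the deposited gene count table whose mouse symbol belonged to the Gria, Grik, Grid, Grin, Grm, Gabr, Gabbr, Glra or Glrb families, with Grm6 and Grina left out. This gave 49 of the 19999 genes in the table: 48 subunit genes and Grin1os, an RNA transcribed antisense to Grin1 that carries the same symbol stem. Of the 48 subunit genes, 25 encode glutamate receptors and 23 encode GABA or glycine receptors. All 49 passed the filter on low counts. The symbols Gabra6, Gabre and Gabrp also match these families, but the count table holds no row for them.

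Glutamate released by photoreceptors and bipolar cells opens AMPA, kainate and NMDA channels, which are tetramers of subunits from separate gene families, and acts more slowly through metabotropic receptors. GABA and glycine, released by amacrine and horizontal cells, open chloride channels that are pentamers of subunits. In the retina the rho subunits form a slowly closing GABA-gated channel, long called the GABA-C receptor, at the axon terminals of bipolar cells, where it limits glutamate release.

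The libraries hold retinal RNA of BALB/c mice, which are albino. There were 5 libraries of retina damaged by light (named LD-vehicle) and 5 control libraries (CTRL-vehicle). Both groups carry the word vehicle, so the vehicle is shared by the controls. The series title names P2RX7 and cGAS-STING signaling, and the treatment A74 of its design was not analysed here. Light dose, time after light, sex and age are missing from the labels. The labels do not tie each library to its own animal, so p-values reflect only how these libraries vary, which may be technical.

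Total counts per library ran from 17900227 to 20337329 with light damage and from 14652535 to 20699236 without. Levels are given as CPM, counts per 1000000 of the TMM-scaled library total, as mean ± SD over n = 5 libraries per group. A gene was called higher or lower at an adjusted p under 0.05 in the quasi-likelihood test of edgeR, adjusted by Benjamini-Hochberg over all 16852 genes tested. Light damage replicates 1 and 2 stood apart from the other libraries. They had 17174 and 20414 counts of Xist, against 1 to 9 in the other 8, and their summed lens crystallin and membrane genes reached 6642 and 3528 CPM, against at most 99.5 CPM elsewhere. The counts of calls and each called receptor gene are therefore also given without these 2 libraries. No control had such Xist counts, and the labels do not give sex, so the groups may differ in sex. The part of sex in the results was not tested. Rod markers dominated every library, with a sum of 61723 to 108093 CPM, rods being the main cell of mouse retina.

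The 2 genes whose difference was called with and without those libraries, Gabrr1 and Gabrr2, are neighbours on chromosome 4 in RefSeq. The 250 bases before the RefSeq start of each are shown because both genes rose, so that their upstream letters can be read side by side. They come from the GRCm38.p6 windows at chr4:33132306-33132555 (Gabrr1) and chr4:33062862-33063111 (Gabrr2), both on the plus strand. Capitals mark the letters TAATCC, the core bound by the photoreceptor and bipolar cell factors CRX and OTX2, read on the opposite strand.
Gabrr1: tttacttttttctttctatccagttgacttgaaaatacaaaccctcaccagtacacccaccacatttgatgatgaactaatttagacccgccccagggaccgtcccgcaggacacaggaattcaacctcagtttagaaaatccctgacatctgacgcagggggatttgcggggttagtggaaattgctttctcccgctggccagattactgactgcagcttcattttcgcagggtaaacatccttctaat
Gabrr2: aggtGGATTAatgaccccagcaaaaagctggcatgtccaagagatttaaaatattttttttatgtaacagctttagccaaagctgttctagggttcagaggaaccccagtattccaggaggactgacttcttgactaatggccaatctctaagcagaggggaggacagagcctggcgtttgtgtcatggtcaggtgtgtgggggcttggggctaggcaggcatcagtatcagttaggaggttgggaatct
The Gabrr1 window had a GC content of 46.0% and the Gabrr2 window 47.6%. Both strands were searched for TAATCC and for TGACGTCA, the cAMP response element. The Gabrr2 window held TAATCC once, beginning 246 bases before the start, and the Gabrr1 window held neither motif. TAATCC occurred in 2054 of 32851 RefSeq windows (6.25%) and TGACGTCA in 508 (1.55%). Of 40 windows available for 33 of the 49 genes, 3 held TAATCC, those of Gabra2, Gabrr2 and Grin1os, and 0 held TGACGTCA. A match is a description of letters only.

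Of the 49 receptor genes, 6 were higher in light damage and 1 was lower. The 6 that rose all encode subunits of GABA- or glycine-gated chloride channels, with Gabrr1, Gabrr2, Gabra3 and Glra2 among them. The 1 that fell, Grin2d, encodes an NMDA receptor subunit. The 6 are 12.2% of the receptor genes, where 5.32% of all genes tested were called higher, and the 1 is 2.04%, where 7.85% of all genes were called lower. The changes were small, between 1.17-fold and 1.33-fold among the genes that rose and 0.78-fold for Grin2d. The median log2 fold change over the 49 genes was 0.11, against 0.00 over all genes tested, and 31 of the 49 had a positive value (63.3%, against 50.3% of all genes). Every light damage library lay above every control for 4 of them (4.31% of all genes), and every one lay below for 1 (5.48% of all genes).

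Among the 23 GABA and glycine receptor genes, 6 rose and 0 fell, 18 had a positive log2 fold change and the median was 0.13. Among the 25 glutamate receptor genes, 0 rose and 1 fell, 13 had a positive value and the median was 0.00. In the quasi-likelihood test of edgeR an unadjusted p under 0.05 was found for 6 of the glutamate receptor genes and 8 of the GABA and glycine receptor genes. Over all genes, 5110 of the 16852 tested had such a p. The difference between these families was not tested. The families also differ in their transcripts: the median length was 5441 bases with 48.3% GC for the glutamate receptor genes and 4108 bases with 42.9% GC for the others. The contrast depended on the processing. With the trends of length and GC content removed, the receptor genes called higher numbered 9, with the glutamate receptor genes Grid1 and Grm5 among those added. With the replicate number as a block, the glutamate receptor gene Grik1 was called higher. Summed over the 49 genes, the receptors took 1968 to 2163 CPM in light damage and 1737 to 2041 CPM in controls, so the sums overlapped.

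Without light damage replicates 1 and 2 the receptor genes called higher numbered 2, Gabrr1 and Gabrr2, and those called lower 0, where 0.782% of all genes were called higher and 1.55% lower. In that comparison of 3 against 5 libraries the median over the 49 genes was 0.08.

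**Figure D1:**
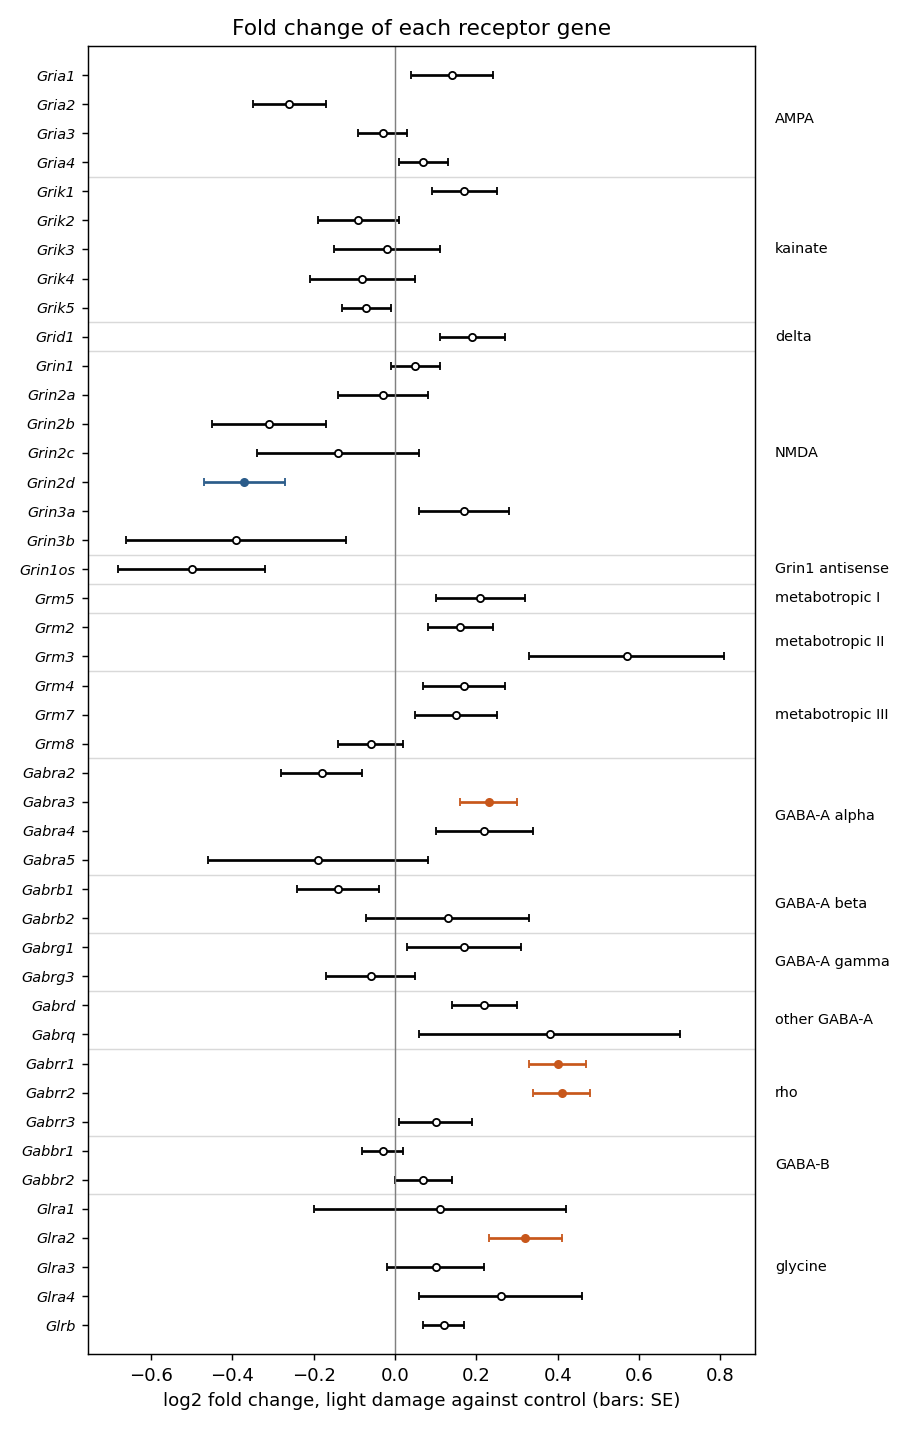
Log2 fold change of each receptor gene described here, light damage against control, grouped by receptor family, with bars for the SE and filled points for genes called (orange higher, blue lower). The 4 filled orange points are all GABA- or glycine-gated channel subunits, and the filled blue point is Grin2d at -0.37.

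Of all 49 genes the rho subunit genes Gabrr1 and Gabrr2 had the lowest p-values. Gabrr1, the rho subunit with the higher level per kilobase, stood at 119, 124, 126, 116 and 119 CPM in light damage replicates 1 to 5 and at 87.0, 94.1, 88.3, 80.8 and 107 CPM in control replicates 1 to 5. The 5 light damage libraries lay close together and all above the controls, of which replicate 5 came nearest. Gabrr1 (ENSMUSG00000028280) rose from 91.5 ± 10 to 120.4 ± 4.01 CPM, a log2 fold change of 0.40 with an SE of 0.07 and an adjusted p of 0.00263. Without light damage replicates 1 and 2 the log2 fold change was 0.39 and the adjusted p 0.0333.

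Gabrr2, the partner rho subunit, stood at 80.7, 83.4, 88.6, 85.7 and 96.0 CPM in light damage and at 57.9, 66.1, 72.1, 58.8 and 72.2 CPM in controls. Again no library of one group entered the range of the other. Gabrr2 (ENSMUSG00000023267) rose from 65.4 ± 6.93 to 86.9 ± 5.85 CPM, with a log2 fold change of 0.41, an SE of 0.07 and an adjusted p of 0.00309. Its log2 fold change was 0.46 without those 2 libraries, with an adjusted p of 0.0223. Both genes were also called when any 1 of the 10 libraries was left out, with highest adjusted p-values of 0.0109 and 0.0123.

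Gabrr3, the third rho gene, was not called. It stood at 35.5, 33.7, 39.8, 39.9 and 34.3 CPM in light damage and at 29.6, 40.3, 33.6, 31.0 and 36.5 CPM in controls, and the highest value of all belonged to a control. Its log2 fold change was 0.10 with an SE of 0.09 and an adjusted p of 0.449. Gabrr1 made up 49.6% ± 1.69 of the summed rho CPM per kilobase in light damage and 48.9% ± 1.92 in controls, with overlapping ranges.

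The alpha subunits of the GABA-A receptor carry part of the GABA site and set the channel's kinetics. Gabra3, an alpha subunit present at synapses of the inner plexiform layer, stood at 45.9, 48.0, 47.5, 46.6 and 44.2 CPM in light damage and at 40.4, 43.6, 37.0, 34.6 and 42.3 CPM in controls. The groups did not overlap, but light damage replicate 5 and control replicate 2 were almost level. Gabra3 (ENSMUSG00000031343) rose from 39.6 ± 3.73 to 46.4 ± 1.48 CPM, with a log2 fold change of 0.23, an SE of 0.07 and an adjusted p of 0.0343. The call was lost when any one of light damage replicates 1 to 4 or control replicates 3 and 4 was left out, with adjusted p-values up to 0.0813. Without light damage replicates 1 and 2 together the log2 fold change was 0.22 and the adjusted p 0.158. Gabra3 lies on the X chromosome, and the part of sex in its difference was not tested.

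Gabra2, Gabra4 and Gabra5 were not called; where 2 means follow each other here and later, the first is of light damage and the second of controls. Gabra2 averaged 15.4 ± 1.11 (light damage) and 17.5 ± 2.86 CPM (control), where control replicates 1 and 2 were high at 21.2 and 19.9 CPM. Gabra4, which occurs in extrasynaptic receptors, averaged 10.1 ± 0.855 and 8.69 ± 1.22 CPM, and Gabra5, near the bottom of the range, 1.28 ± 0.327 and 1.46 ± 0.533 CPM.

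Beta subunits complete the GABA site. Gabrb2 was not called. It ranged from 14.4 to 20.3 CPM in light damage and, more widely, from 10.9 to 24.4 CPM in controls. Gabrb1 averaged 12.1 ± 1.15 and 13.3 ± 1.33 CPM, and was not called either.

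Gabrd, the delta subunit of extrasynaptic GABA-A receptors, stood at 22.7, 23.0, 23.8, 24.3 and 21.4 CPM in light damage and at 20.4, 19.4, 18.3, 17.6 and 23.1 CPM in controls. Control replicate 5 lay within the light damage range, and the other 4 controls lay below it. The log2 fold change of Gabrd was 0.22 with an SE of 0.08, and at an adjusted p of 0.0734 it was not called. Gabrg1, Gabrg3 and Gabrq were also not called: Gabrg1 averaged 7.51 ± 0.572 and 6.66 ± 1.37 CPM (light damage and control), Gabrg3 13.7 ± 1.74 and 14.3 ± 1.71 CPM, and Gabrq, which encodes the theta subunit, 1.05 ± 0.501 and 0.795 ± 0.116 CPM.

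Glycine receptors pair alpha subunits, which bind the ligand, with the beta subunit, which binds the scaffold gephyrin. Glra2 stood at 24.0, 18.8, 23.5, 20.7 and 23.1 CPM in light damage and at 19.9, 18.2, 17.1, 15.2 and 17.9 CPM in controls. Light damage replicate 2 lay below control replicate 1, and the other 4 light damage libraries were above every control. Glra2 (ENSMUSG00000018589) rose from 17.7 ± 1.69 to 22.0 ± 2.22 CPM, with a log2 fold change of 0.32, an SE of 0.09 and an adjusted p of 0.0281. Leaving out light damage replicate 1 or 3, or control replicate 3, 4 or 5, ended this call in 5 of 10 fits, with adjusted p-values up to 0.0827. The log2 fold change was 0.35 without light damage replicates 1 and 2, with an adjusted p of 0.0806.

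Glrb, the glycine receptor gene with the highest level per kilobase, stood at 73.7, 69.5, 69.2, 69.9 and 65.6 CPM in light damage and at 68.1, 66.6, 63.1, 60.6 and 62.5 CPM in controls. Light damage replicate 5 fell among the controls. The log2 fold change of Glrb was 0.12 with an SE of 0.05 and an adjusted p of 0.158. Glra1, the subunit of the adult spinal cord receptor, varied most between libraries of one group: controls ran from 2.72 CPM in replicate 1 to 9.65 CPM in replicate 2. Its log2 fold change was 0.11 with an SE of 0.31. Glra3 averaged 22.6 ± 2.82 and 21.2 ± 4.05 CPM and Glra4 3.1 ± 0.5 and 2.59 ± 0.714 CPM, and neither was called. All 5 glycine receptor genes had a positive log2 fold change, with a median of 0.12, and 1 of the 5 passed the test. The sign of Glra1 was not the same in every fit, at -0.03 without light damage replicates 1 and 2.

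GABA-B receptors are obligate pairs in which Gabbr1 binds GABA and Gabbr2 couples to the G protein. Gabbr1 stood at 200.1, 214, 221, 207 and 201 CPM in light damage and at 208, 212, 209, 206 and 228 CPM in controls. These ranges lay over each other, with the highest value in control replicate 5. The log2 fold change was -0.03 with an SE of 0.05 and an adjusted p of 0.765. Gabbr2 averaged 81.6 ± 6.15 and 78.0 ± 6.93 CPM, with a log2 fold change of 0.07 and an SE of 0.07.

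**Figure D2:**
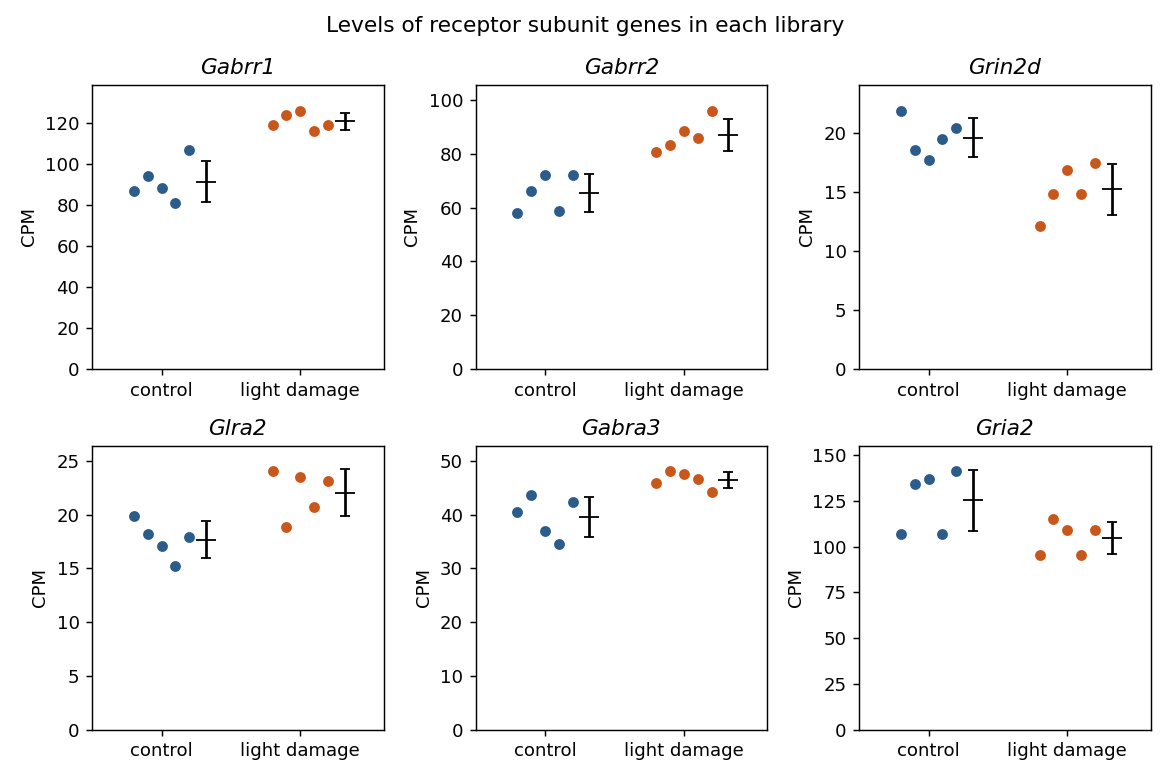
CPM of 5 called receptor genes and of Gria2 (not called) in each of 5 control (blue) and 5 light damage (orange) libraries, with the mean and SD in black. Gabrr1, Gabrr2 and Gabra3 have every light damage library above every control, Grin2d has every one below, and Glra2 and Gria2 overlap.

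NMDA receptors combine the obligatory subunit encoded by Grin1 with subunits that set kinetics and magnesium block. Grin2d, whose subunit gives slowly closing channels with weak magnesium block, stood at 12.1, 14.8, 16.9, 14.8 and 17.5 CPM in light damage and at 21.9, 18.6, 17.7, 19.5 and 20.4 CPM in controls. All light damage libraries were below all controls, and replicate 1 was the lowest. Grin2d (ENSMUSG00000002771) fell from 19.6 ± 1.59 to 15.2 ± 2.13 CPM, with a log2 fold change of -0.37, an SE of 0.10 and an adjusted p of 0.0237. The call was lost without light damage replicate 1, light damage replicate 2 or control replicate 5, with adjusted p-values up to 0.0651. With both of these light damage libraries left out the log2 fold change was -0.26 and the adjusted p 0.176.

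Grin1 stood at 82.3, 77.8, 85.4, 74.9 and 86.9 CPM in light damage and at 87.3, 72.9, 76.8, 73.1 and 82.2 CPM in controls, with a log2 fold change of 0.05, an SE of 0.06 and an adjusted p of 0.603. Its groups covered nearly the same range. Grin2a averaged 12.9 ± 1.6 and 13.2 ± 1.54 CPM, and Grin2c 4.09 ± 1.04 and 4.5 ± 0.993 CPM. Grin2b, a subunit prominent early in development, averaged 17.4 ± 2.56 and 21.5 ± 4.55 CPM, with a log2 fold change of -0.31, an SE of 0.14 and an adjusted p of 0.163. Of the glycine-binding subunits, Grin3a averaged 12.0 ± 1.07 and 10.7 ± 1.43 CPM and Grin3b, at the lowest fold change of the subunit genes (-0.39, SE 0.27), 1.02 ± 0.137 and 1.34 ± 0.533 CPM.

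Grin1os had the lowest log2 fold change of the 49 genes, -0.50 with an SE of 0.18 and an adjusted p of 0.081, and was not called. It stood at 1.79, 2.02, 2.41, 1.88 and 2.17 CPM in light damage and at 2.72, 2.12, 3.47, 2.79 and 3.43 CPM in controls. Control replicate 2 lay inside the light damage range. No source used here says whether the counting used strand, so reads of Grin1 and Grin1os may not be told apart.

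AMPA receptors carry the fast response to glutamate, and the subunit encoded by Gria2 makes the channel nearly impermeable to calcium. Gria2 stood at 95.4, 115, 109, 95.4 and 109 CPM in light damage and at 107, 134, 137, 107 and 141 CPM in controls. Control replicates 1 and 4 lay within the light damage range, and the other 3 controls lay above it. Gria2 had a log2 fold change of -0.26 with an SE of 0.09, and at an adjusted p of 0.0584 it was not called. The value was -0.07 once the trend of each library with transcript length and GC content was removed.

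The other AMPA genes had log2 fold changes closer to 0. Gria4, the AMPA gene with the highest level per kilobase, averaged 93.9 ± 6.13 and 89.7 ± 6.04 CPM, a log2 fold change of 0.07 with an SE of 0.06. Gria1 averaged 59.9 ± 6.33 and 54.2 ± 8.56 CPM and Gria3 41.0 ± 3.26 and 41.8 ± 0.985 CPM. As a share of the summed AMPA CPM per kilobase, Gria2 took 20.8%, 23.02%, 21.18%, 22.47% and 22.23% in light damage and 23.03%, 25.97%, 27.12%, 25.64% and 28.11% in controls. The mean share was 21.9% ± 0.921 in light damage and 26.0% ± 1.91 in controls. All light damage shares were below all control shares, but light damage replicate 2 and control replicate 1 were all but equal. Of 8 such within-family shares this was the 1 without overlap, and no test was made of it. The shares were taken without removing the trend with transcript length and GC content.

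Kainate receptors mediate the light response of OFF cone bipolar cells, for which Grik1 encodes a principal subunit. Grik1 stood at 112, 117, 123, 106 and 106 CPM in light damage and at 96.5, 106, 113, 79.8 and 106 CPM in controls. The groups overlapped, since control replicate 3 lay above light damage replicates 1, 4 and 5, and the lowest value, in control replicate 4, stood well below the rest. The log2 fold change of Grik1 was 0.17 with an SE of 0.08 and an adjusted p of 0.16. Grik5, a subunit that needs a partner such as Grik1 or Grik2 to form a channel, averaged 111 ± 8.61 and 117 ± 7.41 CPM. Grik2 averaged 23.7 ± 2.42 and 25.2 ± 3.97 CPM, Grik3 11.2 ± 1.71 and 11.4 ± 1.71 CPM, and Grik4 4.31 ± 0.204 and 4.58 ± 0.475 CPM. None of the 5 kainate genes was called. The share of Grik1 in the summed kainate CPM per kilobase was 49.2% ± 2.66 in light damage and 45.0% ± 3.05 in controls, with overlap.

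The delta receptor gene Grid1 encodes a protein that organises synapses by binding cerebellins. It averaged 27.0 ± 2.3 and 23.7 ± 2.28 CPM, with a log2 fold change of 0.19, an SE of 0.08 and an adjusted p of 0.133, and was not called.

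None of the 7 metabotropic glutamate receptor genes was called, and 6 of the 7 had a positive log2 fold change with a median of 0.16. In group I, which couples to phospholipase C, Grm5 averaged 20.8 ± 1.82 and 18.0 ± 3.32 CPM. In group II, which inhibits adenylyl cyclase, Grm2 averaged 20.4 ± 1.99 and 18.2 ± 1.11 CPM. Grm3 had the highest log2 fold change of the 49 genes, 0.57 with an SE of 0.24 and an adjusted p of 0.129. It stood at 2.24, 1.4, 1.8, 1.77 and 1.06 CPM in light damage and at 0.805, 1.22, 1.19, 1.01 and 1.37 CPM in controls, so light damage replicate 5 lay among the controls. In group III, which acts mostly at presynaptic endings, Grm8 averaged 30.9 ± 2.53 and 32.3 ± 3.18 CPM, Grm4 17.9 ± 1.99 and 15.9 ± 1.61 CPM, and Grm7 19.7 ± 1.83 and 17.8 ± 2.58 CPM.

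**Figure D3:**
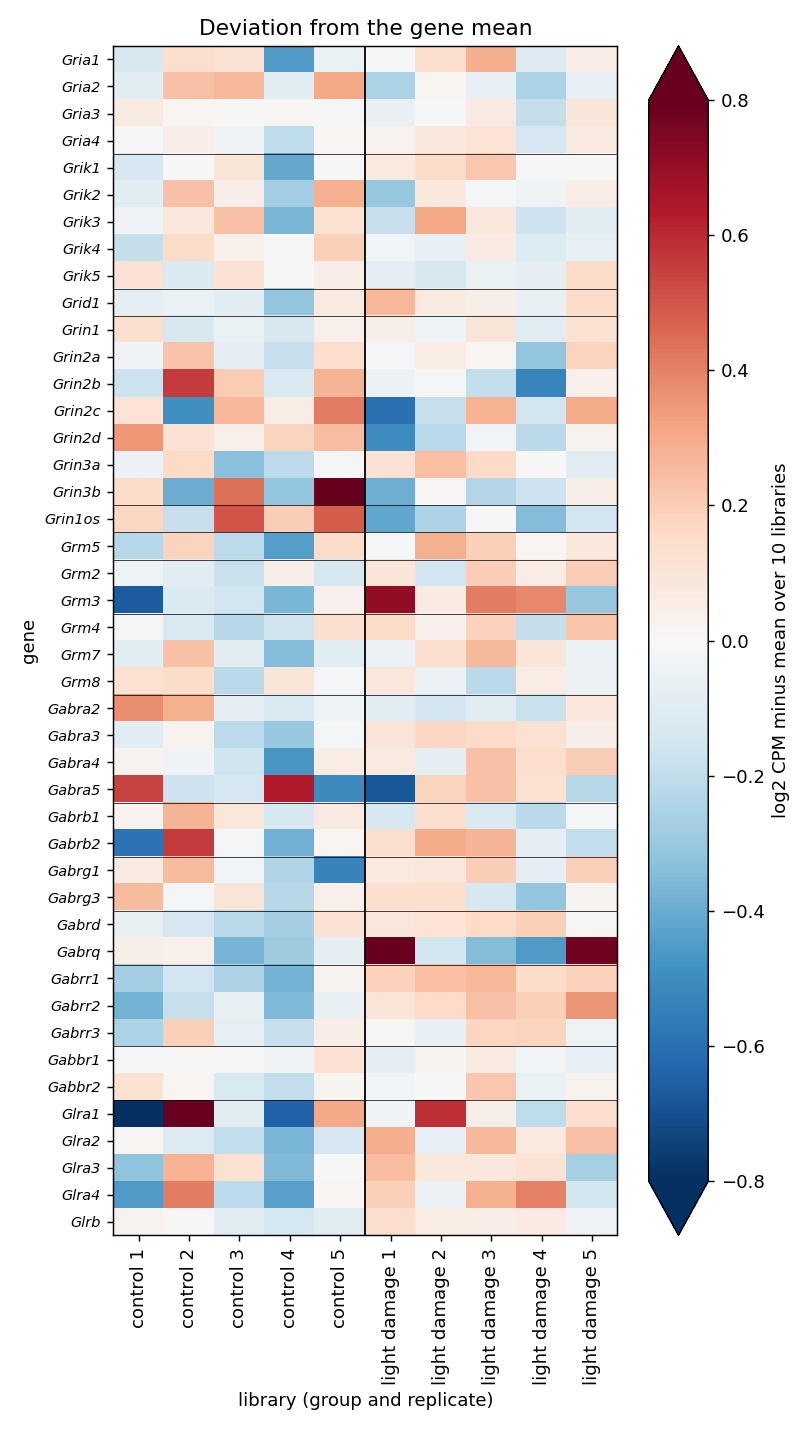
Log2 CPM of each receptor gene described here minus its mean over the 10 libraries, by library, with families separated by thin lines and the groups by a thick one. Colours saturate at the ends of the bar. Rows such as Gabrr1 and Gabrr2 are red in the light damage columns, while Glra1, Grin3b, Gabra5 and Gabrb2 vary widely between control columns.

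Levels can be compared between genes only per kilobase of transcript, taken here from the longest annotated transcript. On that scale Gabrr1 led the receptor genes at a mean of 46.4 CPM per kilobase over the 10 libraries, followed by Gabbr1 at 40.1 and Gabrr2 at 39.4. Grik1 stood at 29.2, Grik5 at 28.0, Glrb at 22.1 and Grin1 at 18.7 CPM per kilobase. The AMPA genes ranged from 7.94 CPM per kilobase for Gria3 to 16.9 for Gria4. Grm8, at 6.58 CPM per kilobase, led the metabotropic genes, ahead of Grm7 at 4.46. The lowest was Gabrq at 0.186 CPM per kilobase. Neighbours in this order, such as Gabbr1 and Gabrr2, or Grik1 and Grik5, lay closer than the range of either gene across libraries. Whether the longest transcript is the one expressed was not tested, and this order and the within-family shares depend on it. Gria2, with 10371 bases against 5441 for Gria4, ranked below Gria4 per kilobase although its mean CPM was higher in both groups.

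**Figure D4:**
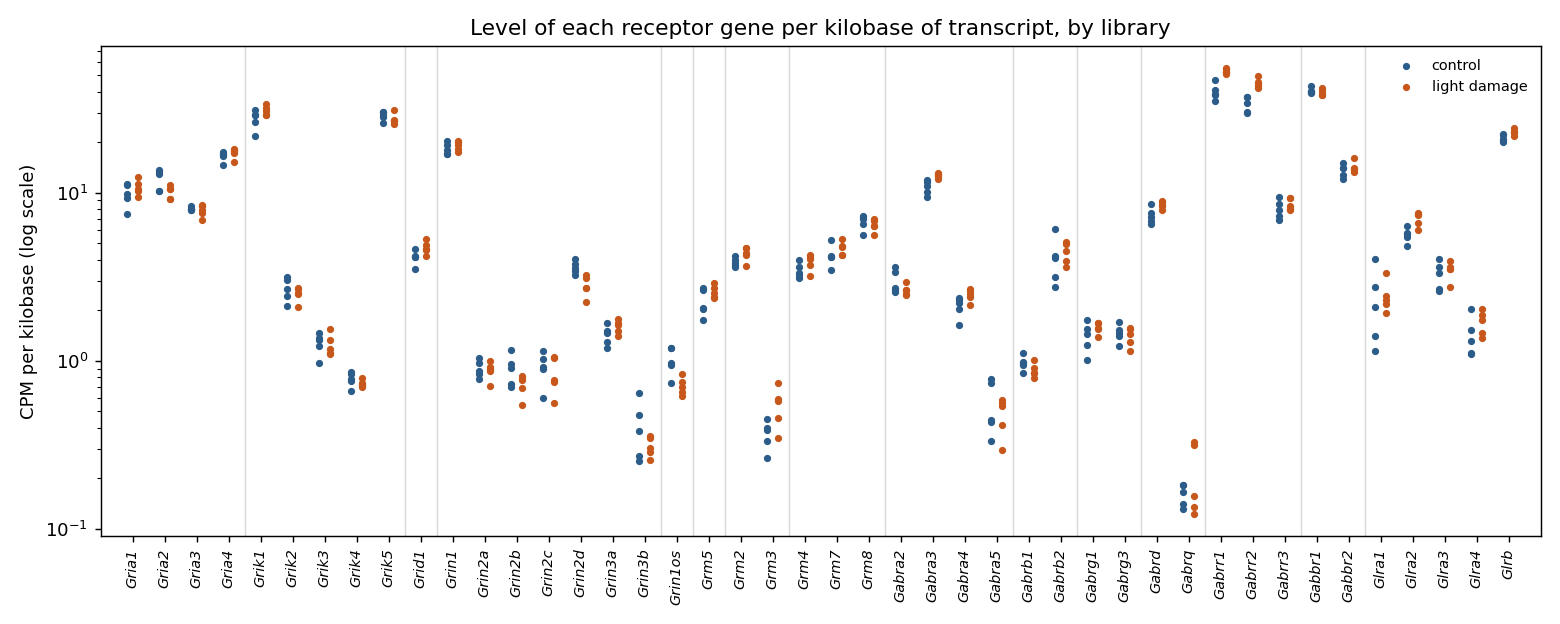
Level of each receptor gene described here in CPM per kilobase of its longest transcript (log axis), with 1 point per control (blue) and light damage (orange) library. Gabrr1, Gabbr1 and Gabrr2 sit highest and Gabrq lowest.

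The cells that carry these receptors were compared through marker genes. Over all genes tested, 5.32% were called higher. Of 9 bipolar cell markers 5 were called higher and 0 lower, and their sum was 1277 to 1489 CPM in light damage and 1073 to 1354 CPM in controls. Of 10 amacrine cell markers 2 were called higher and 0 lower, with sums of 1504 to 1645 CPM in light damage and 1266 to 1471 CPM in controls. Of 6 horizontal cell markers 2 were called higher and 0 lower, with sums of 277 to 305 CPM in light damage and 238 to 271 CPM in controls. Of 11 ganglion cell markers 0 were called, with sums of 1193 to 1309 CPM in light damage and 1032 to 1460.5 CPM in controls, and of 9 Müller glia markers 4 were higher, with sums of 5466 to 7698 and 4146 to 5521 CPM. Rod markers, which hold the largest share of the counts, had 1 of 10 called higher and 0 lower, with sums of 61723 to 86743 CPM in light damage and 66532 to 108093 CPM in controls. Leaving out light damage replicates 1 and 2, 0.782% of all genes were called higher. The markers called higher then numbered 3 for bipolar cells, 1 for amacrine cells, 1 for Müller glia, 0 for horizontal cells and 0 for rods. In RNA from whole retina, more cells of a type, or fewer of another, cannot be told apart from more or less RNA per cell.

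A level relative to a cell type was taken as log2 CPM of the gene minus the mean log2 CPM of that type's markers. Relative to bipolar cell markers, Gabrr1 stood at 0.05 to 0.12 in light damage and at -0.10 to 0.03 in controls, a mean difference of 0.15 without overlap, where the difference in log2 CPM of the markers themselves was 0.26. For Gabrr2 the difference relative to bipolar markers was 0.16, with overlap. The differences of Glra2 and Gabra3 were close to 0 on this scale, at 0.06 and -0.02, both with overlap. Relative to amacrine cell markers they were 0.13 and 0.05, again with overlap. Grin2d was lower relative to the markers of 3 kinds of inner retinal neuron, by a difference of -0.63 relative to bipolar, -0.56 relative to amacrine and -0.47 relative to ganglion cell markers, without overlap in any of the 3. Relative to Müller glia markers, whose own score was higher by 0.41 in light damage, the differences were -0.01 for Gabrr1 and 0.00 for Gabrr2, both with overlap, and -0.79 for Grin2d without overlap. Relative to rod markers they were 0.49 for Gabrr1 without overlap, and 0.50 for Gabrr2 and -0.28 for Grin2d with overlap. For Gabrr1 the lowest light damage value on that scale, -5.02, and the highest control value, -5.03, were all but equal. These differences are descriptions without a test, and the part of cell composition in the results was not tested.

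**Figure D5:**
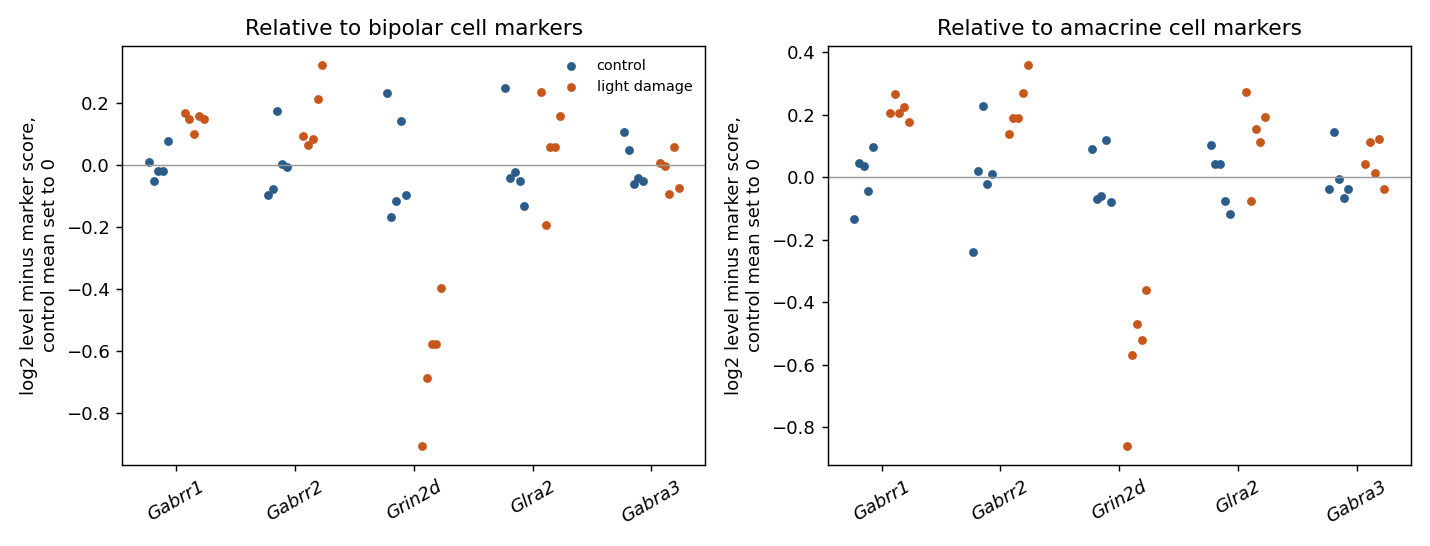
Level of 5 called receptor genes relative to bipolar (left) and amacrine (right) cell markers, in log2 units with the control mean set to 0, for each control (blue) and light damage (orange) library. Relative to both, Gabrr1 lies above and Grin2d below the controls in every light damage library, and the other genes overlap.

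Auxiliary subunits, synaptic organisers and scaffolds work with these receptors. Of 50 such genes listed, all tested, 8 were called higher (16.0%, against 5.32% of all genes tested) and 4 lower (8.0%, against 7.85%), with a median log2 fold change of 0.07. The share called lower was thus near that of all genes. The 35 that act with glutamate receptors gave 6 higher and 3 lower, and the 15 that act with GABA or glycine receptors gave 2 higher and 1 lower. Without light damage replicates 1 and 2, 0 of the 50 were called in either direction by edgeR's quasi-likelihood test. In that fit 0.782% of all genes were called higher and 1.55% lower. The median log2 fold change of the 50 genes was then 0.05.

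Dlg4, which encodes the postsynaptic scaffold PSD-95 and in the retina is also abundant in photoreceptor terminals, stood at 636, 665, 645, 704 and 808 CPM in light damage and at 818, 843, 919, 939 and 852 CPM in controls. Every light damage library was below every control, with replicate 5 the nearest. Dlg4 fell from 874 ± 51.9 to 692 ± 70.2 CPM, with a log2 fold change of -0.34, an SE of 0.07 and an adjusted p of 0.00882. Elfn1, an adhesion protein that joins rods to the metabotropic receptor of ON bipolar cells, fell from 157 ± 8.84 to 128 ± 4.98 CPM (log2 fold change -0.29, adjusted p 0.00499). The postsynaptic scaffold gene Shank1 fell from 90.6 ± 6.3 to 73.5 ± 7.42 CPM (adjusted p 0.0139). Nlgn2, the neuroligin of inhibitory synapses, fell from 188 ± 14.2 to 163 ± 6.5 CPM (adjusted p 0.0307).

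The auxiliary genes that rose with the lowest p-values were Kctd8, Cbln2, Gsg1l and Gabarap. Kctd8, a GABA-B receptor auxiliary subunit, rose from 23.5 ± 1.26 to 28.2 ± 1.1 CPM (log2 fold change 0.26, adjusted p 0.0159). Cbln2, a secreted cerebellin that binds delta receptors, rose from 28.7 ± 1.14 to 34.1 ± 1.73 CPM (0.25, adjusted p 0.0179). Gsg1l, an AMPA receptor auxiliary subunit, rose from 16.5 ± 1.46 to 20.3 ± 1.3 CPM (0.30, adjusted p 0.0237). Gabarap, which binds GABA-A receptors and also acts in autophagy, rose from 77.5 ± 9.19 to 94.4 ± 6.92 CPM (0.28, adjusted p 0.0244). With 1 library left out, Dlg4, Elfn1, Shank1 and Kctd8 were called in 10 of 10 fits, Cbln2 in 9, Gsg1l in 8, Gabarap in 6 and Nlgn2 in 5.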

How the data were processed

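The deposited table holds 1 whole-number count per gene and library for 19999 genes in 10 libraries, and 0 columns belong to other samples. GRCm39, Bowtie2, RSEM 1.3.1 and DESeq2 1.4.5 are listed, without their roles, in the submitters' processing notes. No source used here says whether the authors' counts are rounded RSEM estimates, how near-identical genes were treated or whether strand was used. All libraries carry the same batch entry. Symbols, transcript lengths and GC content came from GENCODE M21 by Ensembl identifier (19892 matched), an annotation of GRCm38, so the only coordinates printed are those of RefSeq promoter windows. The chi-square statistic per degree of freedom was 6.09 to 42.6 over 45 pairs of libraries, so each was counted once.

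Counts were analysed in R 4.3.3. Groups came from the sample titles. edgeR 4.0.16 filterByExpr kept 16852 genes, with 99.8% to 99.92% of each library's counts, and TMM scaling and the robust quasi-likelihood test compared the groups, with Benjamini-Hochberg adjustment. SEs were derived from the F statistic. Marker scores are means of log2(CPM + 0.1). The steps were run on simulated counts, in which the set changes were larger than those of the called receptor genes. Recovery of changes as small as theirs was not tested. Members, lists and alternatives were chosen with earlier results of these data known. Named were the called genes, the gene with the highest CPM per kilobase of each family, the extremes of fold change and up to 4 called auxiliary genes per direction, and other receptor genes are given by mean. Some receptor genes enter the counts but are not reported here. Alternatives were DESeq2 1.42.0, limma-voom (limma 3.58.1), other scalings and filters, the replicate number as a block, removal of length and GC trends (lowess, span 0.3), and leaving out libraries. Figures used Python 3.11.15 and matplotlib 3.10.9.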

Additional observations from a re-analysis of the deposited data

Results flagged for a closer look

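In 3 of 114 groups of 5 libraries tested (49 receptor and 8 auxiliary genes), 1 library lay far from the other 4; chance flags about 1 group in 20. Grik5 was highest in light damage replicate 5 at 126 CPM, where the next library stood at 109.6 CPM and the lowest at 104 CPM. Gabbr2 was highest in light damage replicate 3 at 92.3 CPM, above 81.1 and 76.8 CPM. Gabbr1 was highest in control replicate 5 at 228 CPM, above 212 and 206 CPM.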

How the results depend on the processing

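The 7 called receptor genes kept their call under DESeq2, limma-voom, both other scalings, both other filters, the replicate block and removal of length and GC trends. Counts of calls moved when libraries were left out, and the cause was not tested. Over all genes, 896 higher and 1323 lower became 135 and 268 without light damage replicates 1 and 2, and ranged from 399 to 1347 and from 723 to 1644 with 1 library left out. Library totals alone gave 1147 and 912. Receptor genes called higher, 6, became 2 without light damage replicates 1 and 2, and 3 to 6 with 1 library left out. Receptor genes called lower, 1, became 2 under DESeq2 (adding Gria2), 0 without light damage replicates 1 and 2, and 0 to 2 with 1 library left out. Auxiliary genes called higher, 8, became 0, and 1 to 10, and those called lower, 4, became 0. The replicate block gave 1431 genes higher, and 3 receptor genes lower, adding Gria2 and Grin2b, with Grik1 added among those higher. Whether the replicate numbers pair the libraries is unknown. Correlations cannot decide it, since a pairing can leave only a weak trace. Deviations of same-numbered libraries correlated at 0.0714, 0.0621, 0.316, 0.0522 and 0.0602 for replicates 1 to 5. Replicates 1, 2 and 5 correlated better with another number, and replicates 3 and 4 best with their own. No called gene changed sign. With length and GC trends removed the log2 fold changes were Gabrb1 0.06, Gabrg3 0.06, Gria3 0.02, Grik2 0.07, Grik3 0.09, Grin2a 0.18 and Grin2b 0.01, and the receptor genes called higher numbered 9, with Grid1 and Grm5 among those added. Grik3 was 0.00 with library totals alone. Without light damage replicates 1 and 2, Glra1 was -0.03 and Grin2c 0.06. With 1 library left out the ranges were Gabrg3 -0.11 to 0.00, Glra1 -0.07 to 0.41, Gria3 -0.06 to 0.01, Grik3 -0.11 to 0.04 and Grin2a -0.08 to 0.04. The median of the 49 genes stayed between 0.06 and 0.16 with 1 library left out. Depth limits genes near 1 CPM, such as Gabrq, Grin3b, Gabra5 and Grm3.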
